A study of Mus musculus with 8 samples.

Results

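The adenylyl cyclases are the enzymes that make the second messenger cyclic AMP (cAMP) from ATP. The 9 membrane-bound members, Adcy1 to Adcy9, were followed in the striatum of 4-week-old male R6/2 mice and wild-type (WT) controls. Members were the non-control probes that the scanner files name Adcy1 to Adcy9, which gave 9 genes among the 22221 named on the array, read by 11 of 55681 probes, with 3 probes for Adcy5 and 1 for each of the other genes. All 11 were well above background on all 8 arrays, none was saturated, and all entered the test.

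R6/2 mice are a transgenic model of Huntington's disease that carries exon 1 of the human huntingtin gene with an expanded CAG repeat, under the human promoter, beside the mouse's own intact Htt gene. Total RNA from striatum was labelled with Cy3 and hybridised to 1-colour Agilent arrays, 4 for WT and 4 for R6/2. All mice were male and the only stated difference between the groups was the transgene. Whether the 4 arrays of a genotype stand for 4 animals is not stated in the labels. The p-values therefore rest on the spread among arrays, which could be technical.

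Membrane adenylyl cyclases are switched on by the G protein subunits Gs and Golf and are tuned by inhibitory G proteins, by G protein beta-gamma subunits and by calcium. Adcy5 is the predominant cyclase of the projection neurons of the striatum, where dopamine D1 and adenosine receptors reach it through Golf and dopamine D2 receptors inhibit it. cAMP then activates protein kinase A, and phosphodiesterases remove it.

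Sequences of probes and of promoter windows are shown first. The 3 Adcy5 probes lie close together on mm9 chromosome 16, plus strand, at chr16:35304041-35304100 (A_66_P120414, here probe 1), chr16:35304398-35304457 (A_55_P2047305, probe 2) and chr16:35304551-35304610 (A_55_P2106645, probe 3). The Adcy9 probe A_55_P2106666 lies at chr16:4287678-4287737 on the minus strand. Which exon or untranslated region each probe reads was not analysed here. The first 30 bases of each of these 60-base probes are given in lower case, 5′ to 3′, because each reads a different stretch of its transcript.
Adcy5 probe 1: atgtttccccttggcagaagactctgctag
Adcy5 probe 2: gcaagaggacaccaggcaaggagcagtggc
Adcy5 probe 3: ggaggtgggaaccccaacttgtctttttgt
Adcy9 probe: ttcatttccacccatttcggttttccttta
Over the 55 pairs that the 11 probes form, the longest run of bases that 2 probes shared was 9 of 60.

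Promoter windows of 250 bases before to 50 after the transcription start were taken from RefSeq (GRCm38.p6), which held 7 of the 9 genes. The windows of Adcy5, Adcy9 and Adcy1, the genes whose R6/2 arrays all lay below the WT arrays, are shown with each GC box (GGGCGG, searched on both strands) in capitals.
Adcy5 promoter, chr16:35154614-35154913, plus strand: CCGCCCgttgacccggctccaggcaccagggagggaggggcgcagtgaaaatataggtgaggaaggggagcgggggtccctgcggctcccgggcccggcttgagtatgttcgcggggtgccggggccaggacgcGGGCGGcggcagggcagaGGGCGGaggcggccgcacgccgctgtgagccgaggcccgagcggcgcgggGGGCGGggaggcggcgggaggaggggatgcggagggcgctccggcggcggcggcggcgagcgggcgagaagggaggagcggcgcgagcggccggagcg
Adcy9 promoter, chr16:4420449-4420748, minus strand: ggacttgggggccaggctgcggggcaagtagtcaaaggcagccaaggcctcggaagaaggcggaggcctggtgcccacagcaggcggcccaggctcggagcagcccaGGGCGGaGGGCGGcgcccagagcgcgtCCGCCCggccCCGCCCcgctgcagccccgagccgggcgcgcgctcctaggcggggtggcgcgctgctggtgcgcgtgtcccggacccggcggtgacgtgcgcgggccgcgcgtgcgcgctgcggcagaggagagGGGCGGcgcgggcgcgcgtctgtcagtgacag
Adcy1 promoter, chr11:7063183-7063482, plus strand: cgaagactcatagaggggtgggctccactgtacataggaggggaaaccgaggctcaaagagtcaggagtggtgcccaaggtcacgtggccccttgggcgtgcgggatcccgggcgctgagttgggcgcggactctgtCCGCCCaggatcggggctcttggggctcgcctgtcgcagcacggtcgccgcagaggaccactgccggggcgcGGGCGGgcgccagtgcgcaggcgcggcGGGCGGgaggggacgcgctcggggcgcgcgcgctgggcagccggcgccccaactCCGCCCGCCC
The Adcy5 window held 4 GC boxes, and those of Adcy9 and Adcy1 held 5 each. At least 1 GC box was in 35.7% of all 32851 promoters, whose number of boxes per promoter was not compared. Their GC content was 79.0% for Adcy5, 78.3% for Adcy9 and 74.0% for Adcy1, against a median of 52.7% over all promoters. The cAMP response element TGACGTCA was in none of the members' windows and in 1.79% of all promoters. High GC content was not limited to these 3 genes: the window of Adcy2, whose genotypes overlapped, had 75% GC and 3 GC boxes, and the higher of the 2 Adcy3 windows had 68.7% and 1. These letters describe the windows only, and binding was not measured.

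Values below are scaled signals, meaning the processed signal of a probe divided by the 75th percentile of its array, and differences are log2 R6/2 minus WT with their standard error (SE). A probe was called when the limma test gave a Benjamini-Hochberg adjusted p under 0.05 over the 35131 probes tested. By that rule 4 of the 11 probes fell, the 3 of Adcy5 and that of Adcy9, and none rose. Over all probes tested 1.51% were called in either direction, 1.14% lower and 0.37% higher. The median difference of the 11 probes was -0.35, beside 0.01 over all probes, and 10 of the 11 differences were negative. Adcy5 supplied 3 of the 11 probes, so it weighs 3 times in the median and in each count of probes here. Over all genes, on 1 probe each, 7539 of 16574 had a negative difference. The genotypes did not overlap for 5 probes, all lower in R6/2, while 12.4% of all probes did not overlap in either direction and 6.19% were lower without overlap.

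**Figure D1:**
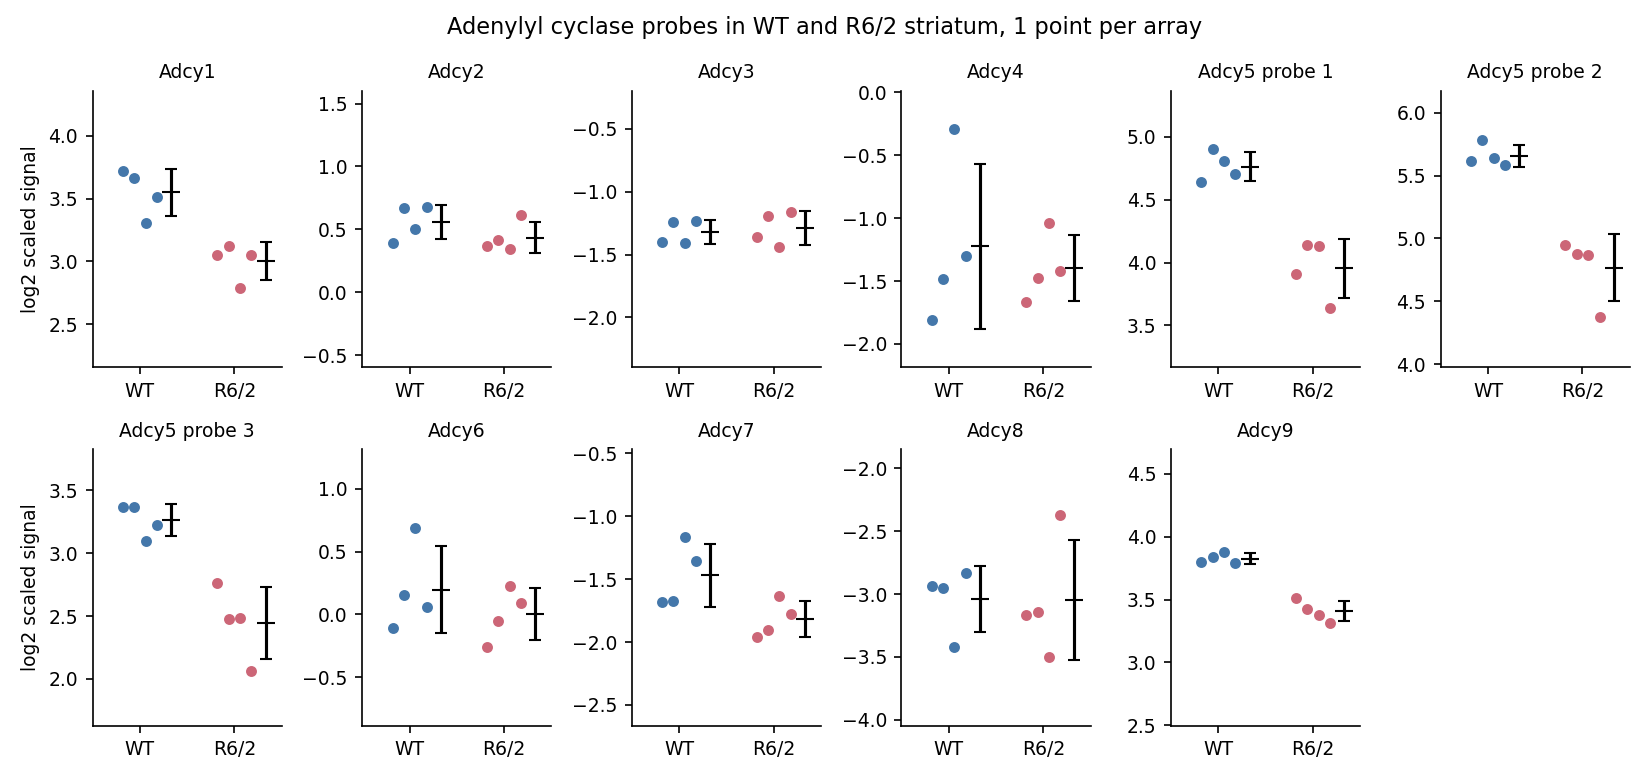
Log2 scaled signal of each adenylyl cyclase probe, 1 point per array, with the mean and SD of each genotype beside the points; every panel spans the same log2 range. The 4 R6/2 arrays lie below all 4 WT arrays for Adcy1, Adcy9 and the 3 Adcy5 probes, and the genotypes overlap for Adcy2, Adcy3, Adcy4, Adcy6, Adcy7 and Adcy8.

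Adcy5, which calcium and inhibitory G proteins hold down, fell on all 3 of its probes. Probe 2, the brightest, had scaled signals of 49.0, 55.0, 49.8 and 48.0 in WT and 30.9, 29.4, 29.2 and 20.7 in R6/2. Every R6/2 array was below every WT array, and R6/2 array 4 was the lowest. The difference was -0.89 ± 0.13 (SE, 95% interval -1.19 to -0.58), or 1.85-fold lower, with a limma adjusted p of 0.0262. In bulk striatum, fewer cells of a type and less RNA per cell cannot be told apart. Probe 1 had scaled signals of 24.9, 29.9, 28.1 and 26.1 in WT and 15.0, 17.6, 17.6 and 12.4 in R6/2. Again the genotypes did not overlap and R6/2 array 4 was the lowest. Probe 1 fell by 0.81 ± 0.13 (SE), 1.75-fold, with an adjusted p of 0.0291. Probe 3 had scaled signals of 10.3, 10.3, 8.56 and 9.35 in WT and 6.79, 5.56, 5.60 and 4.18 in R6/2. It fell by 0.82 ± 0.15 (SE), 1.76-fold, with an adjusted p of 0.0432, again with no overlap. The 3 probes read the same RNA on the same arrays, so they are not independent replicates of the decrease.

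The size of the decrease did not differ detectably among the Adcy5 probes. The decrease of probe 2 differed from that of probe 1 by -0.08 ± 0.08 (95% interval -0.27 to 0.12) and from that of probe 3 by -0.07 ± 0.08 (-0.26 to 0.12). Neither of these 2 probe pairs had an unadjusted p under 0.05 in limma. Over the 6650 such pairs of all genes, 0 were called, 706 had an unadjusted p under 0.05, and the methods' t-test also called 0.

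Adcy6, the close relative of Adcy5 that calcium and inhibitory G proteins also hold down, had scaled signals of 0.927, 1.11, 1.61 and 1.04 in WT and 0.837, 0.965, 1.17 and 1.06 in R6/2. The genotypes overlapped, and the difference of -0.20 ± 0.18 (SE, 95% interval -0.61 to 0.22) was not called (adjusted p = 0.632). WT array 3 was the highest of the 8, and without it the difference was -0.034 (adjusted p = 0.923). Adcy6 was read by 1 probe, A_51_P243134, at chr15:98420404-98420418.

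Adcy9, the member that forskolin activates least, fell with the smallest scatter of the family. Its scaled signals were 13.9, 14.3, 14.7 and 13.8 in WT and 11.4, 10.8, 10.4 and 9.97 in R6/2. The genotypes did not overlap. The difference was -0.42 ± 0.07 (SE, 95% interval -0.57 to -0.26), 1.34-fold lower, with a limma adjusted p of 0.0315. The SD within genotypes was 0.06 on the log2 scale, lower than that of all but 5.05% of the probes tested.

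Among the members that calcium and calmodulin stimulate, Adcy1 was lower in every R6/2 array but did not pass the test. Its probe, A_51_P196718 at chr11:7077699-7077755, had scaled signals of 13.2, 12.6, 9.88 and 11.4 in WT and 8.27, 8.73, 6.89 and 8.28 in R6/2. Array 3 was the lowest of both genotypes. The difference was -0.55 ± 0.12 (SE, 95% interval -0.81 to -0.28), 1.46-fold, with an unadjusted p of 0.00145 and an adjusted p of 0.0640 in limma. Adcy3, known from olfactory neurons and neuronal cilia, had scaled signals of 0.378, 0.423, 0.377 and 0.426 in WT and 0.389, 0.438, 0.369 and 0.448 in R6/2. The genotypes overlapped throughout, with a difference of 0.03 ± 0.09 (SE, 95% interval -0.17 to 0.24; adjusted p = 0.886). Adcy8 had scaled signals of 0.131, 0.129, 0.0932 and 0.140 in WT and 0.111, 0.113, 0.0885 and 0.193 in R6/2. R6/2 array 4 was the highest of the 8 for Adcy8, the opposite of its place for Adcy5. The difference of -0.01 ± 0.24 (SE, 95% interval -0.56 to 0.55; adjusted p = 0.992) was not called, and its interval was the widest of the family after that of Adcy4. The Adcy3 probe A_51_P484671 lies at chr12:4211535-4211594 and the Adcy8 probe A_51_P303061 at chr15:64530939-64530998.

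The members that beta-gamma subunits stimulate, Adcy2, Adcy4 and Adcy7, were not called. Adcy2 (A_51_P337523, chr13:68759669-68759728), a cyclase of brain and muscle, had scaled signals of 1.31, 1.59, 1.41 and 1.60 in WT and 1.29, 1.33, 1.27 and 1.53 in R6/2. The genotypes overlapped, and the difference was -0.12 ± 0.10 (SE, 95% interval -0.35 to 0.10; adjusted p = 0.567). Adcy7 (A_52_P586141, chr8:90853657-90853716), a cyclase of blood and immune cells, had scaled signals of 0.311, 0.314, 0.446 and 0.390 in WT and 0.257, 0.267, 0.322 and 0.293 in R6/2. The genotypes overlapped, since R6/2 array 3 was above WT arrays 1 and 2. The difference was -0.35 ± 0.14 (SE, 95% interval -0.66 to -0.03), with an unadjusted p of 0.0335 and an adjusted p of 0.247 in limma. Adcy4 (A_51_P229911, chr14:56388004-56388063), a cyclase found in blood vessels, had scaled signals of 0.285, 0.357, 0.817 and 0.405 in WT and 0.316, 0.359, 0.487 and 0.374 in R6/2. WT array 3 stood far above the others. The difference was -0.18 ± 0.31 (SE, 95% interval -0.89 to 0.53; adjusted p = 0.813), and without WT array 3 it was 0.13 (adjusted p = 0.749).

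Adcy4, Adcy6 and Adcy7 shared 1 feature across arrays. All 3 were highest on array 3 of both genotypes, the arrays on which Adcy1, Adcy8 and, narrowly in WT, Adcy3 were lowest. The summed scaled signal of 7 endothelial markers was also highest on those arrays, at 24.9 in WT array 3 against 17.0 to 19.8 in the other WT arrays, and at 19.7 in R6/2 array 3 against 16.9 to 17.4. So was that of 8 microglia markers, at 151 in WT array 3 against 129 to 138, and at 129 in R6/2 array 3 against 112 to 119. No other marker list had its highest sum on array 3 of both genotypes. The part of the endothelial and microglia markers in the levels of Adcy4, Adcy6 and Adcy7 was not tested. On the slide, arrays with the same replicate number stood in the same column.

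**Figure D2:**
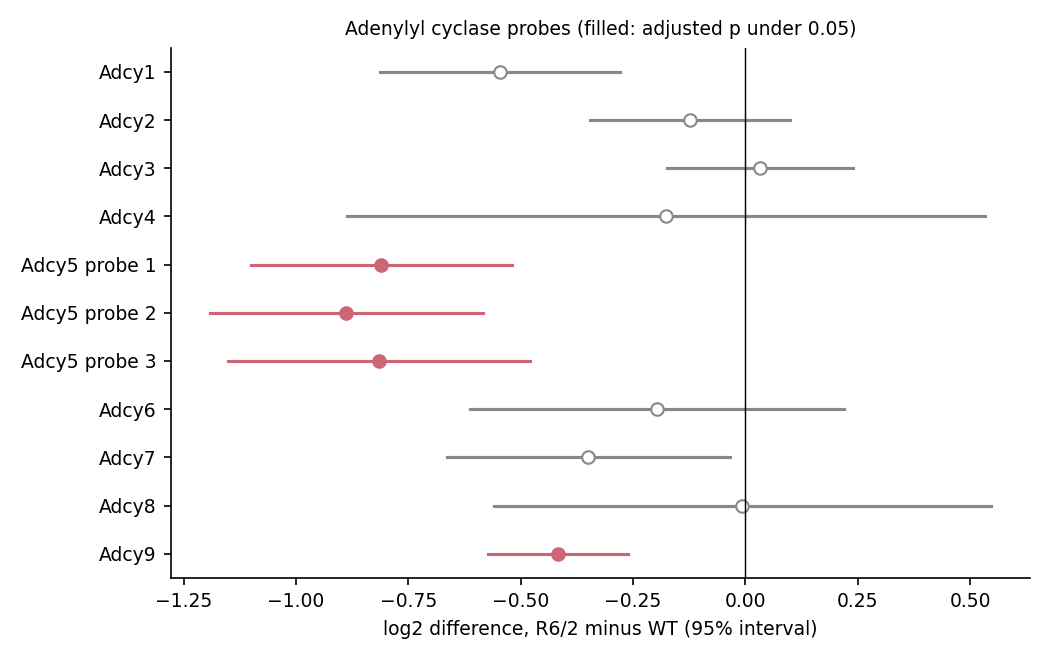
Log2 difference of each adenylyl cyclase probe, R6/2 minus WT, with its 95% interval from limma; filled points have an adjusted p under 0.05. The 3 Adcy5 probes lie between -0.89 and -0.81 and Adcy9 at -0.42, while the intervals of Adcy2, Adcy3, Adcy4, Adcy6 and Adcy8 include 0.

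Whether Adcy5 moved apart from its relatives was tested as the change of the ratio of Adcy5 (probe 2) to each other member. The ratio was lower in R6/2 for 7 of 8 members, by -0.92 ± 0.19 against Adcy3 and by -0.47 ± 0.16 (SE, 95% interval -0.82 to -0.12, adjusted p = 0.0139) against Adcy9. Against Adcy1 it was -0.34 ± 0.19 (95% interval -0.75 to 0.07, adjusted p = 0.105), so a difference between the decreases of Adcy5 and Adcy1 was not detectable. The ratio of Adcy5 to any gene was called for 90.7% of the 16573 other genes (90.4% lower and 0.302% higher), so the count of 7 of 8 is near the background. Adcy5 was chosen with its difference in these data known. All these ratios share the same Adcy5 values, so they are not independent of each other. By the methods' t-test the ratio differed for 4 of 8 members. Against 12 markers of striatal projection neurons the ratio was lower for 7 and higher for 1, Scn4b. Against 10 markers of neurons in general it was lower for all 10.

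Same-numbered arrays were also taken as pairs, by the check described under the processing, although the labels do not state a pairing. With the replicate number as a block, Adcy5 probe 1 passed (limma adjusted p = 0.0483) and Adcy1 also passed (adjusted p = 0.0483), while Adcy5 probe 2 (0.0509), Adcy5 probe 3 (0.0600) and Adcy9 (0.0630) did not, so 2 probes were called in place of 4. The differences within the 4 pairs were -0.67, -0.90, -0.77 and -1.21 for Adcy5 probe 2, all lower in R6/2. They were -0.29, -0.41, -0.50 and -0.47 for Adcy9. They were -0.67, -0.53, -0.52 and -0.46 for Adcy1, again all lower in R6/2. In the authors' deposited table Adcy9 had an adjusted p of 0.0452 and a fold change of 1.32, lower in R6/2. The same authors' deposited table gives Adcy5 adjusted p-values of 0.0868 (probe 1), 0.0816 (probe 2) and 0.122 (probe 3).

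Leaving out 1 array at a time kept every difference of Adcy5, Adcy9 and Adcy1 negative but changed the calls. The count of member probes called was 0 without WT array 1, WT array 2, WT array 4, R6/2 array 2 or R6/2 array 3. It was 2 without R6/2 array 1 or R6/2 array 4, and 3 without WT array 3. Adcy5 probe 2 ranged from -0.95 to -0.76 with adjusted p from 0.0246 to 0.0820. Adcy5 probe 1 ranged from -0.87 to -0.70 (adjusted p 0.0446 to 0.0879), Adcy5 probe 3 from -0.92 to -0.69 (0.0459 to 0.117), and Adcy9 from -0.45 to -0.39 (0.0495 to 0.101). Over all probes the count called also dropped, from 531 to between 100 and 506 with 1 array left out.

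**Figure D3:**
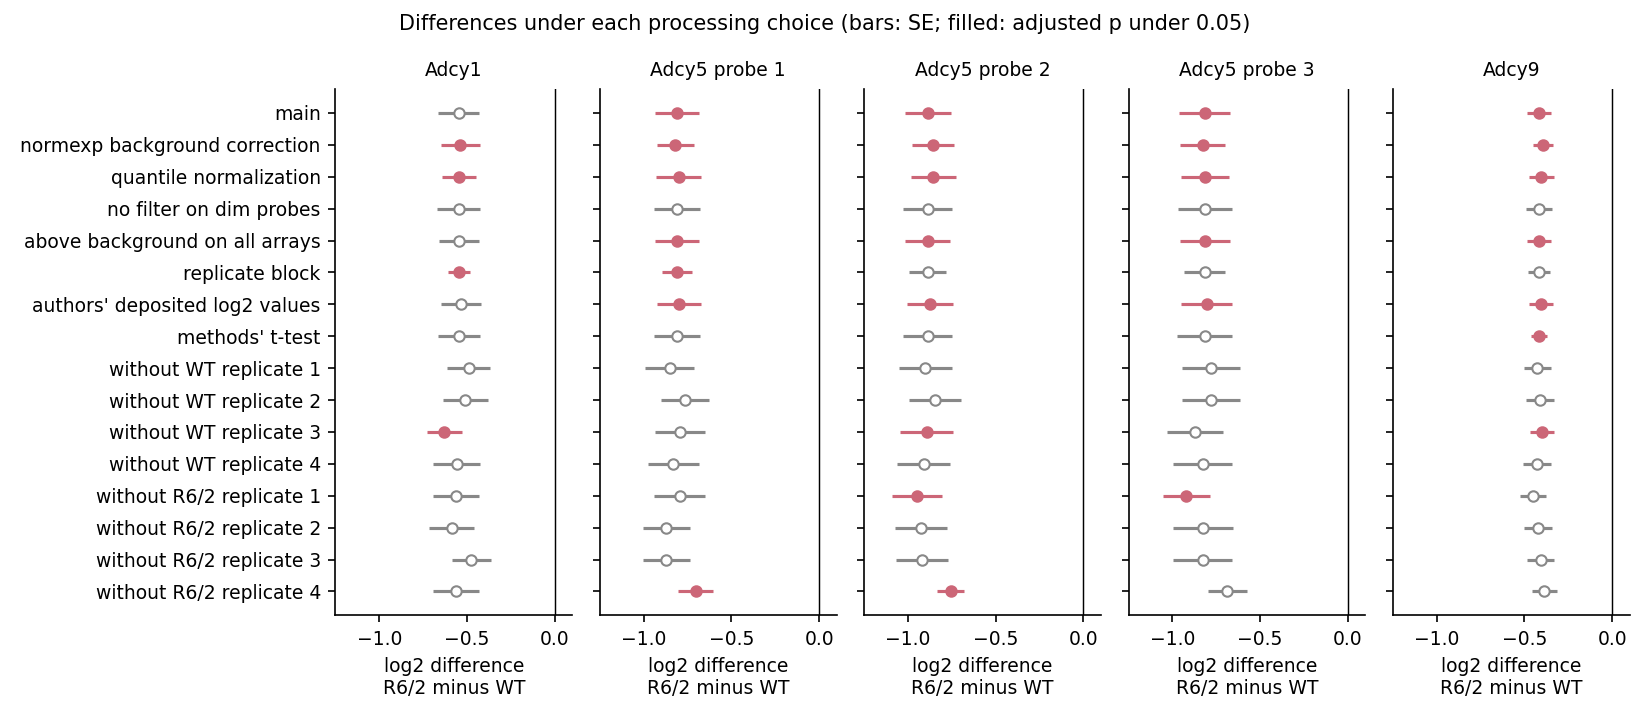
Log2 difference of the Adcy1, Adcy5 and Adcy9 probes under each processing choice and with each array left out, with SE bars; filled points have an adjusted p under 0.05. Every point lies below 0, and the filled points vary with the setting.

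The arrays were of like depth, with 61.5% to 67.7% of probes well above background and correlations of 0.983 to 0.993 within a genotype and 0.981 to 0.990 between genotypes. Gm12695, the locus at which the R6/2 transgene is known to have inserted, was well above background on 4 R6/2 arrays and 0 WT arrays. The Htt probe was not called (0.01 ± 0.07, SE, limma adjusted p = 0.961). Which exon it reads was not analysed, so it gave no check of the transgene. All 8 arrays were on 1 slide, with WT in row 1 and R6/2 in row 2, so slide row and genotype cannot be told apart. All 12 projection neuron markers were measured. Their summed scaled signal was 737 to 841 in WT and 420 to 575 in R6/2, with no overlap. Of the 12 markers 5 were called lower, beside 1.47% of all genes tested. Penk had the highest signal of the 12 (mean log2 7.77 in WT and 6.66 in R6/2) and weighs most in the sum. The median difference was -0.51, and 11 of the 12 were negative, with Tac1 at 0.21. Over all 16574 genes tested, 3151 had an unadjusted p under 0.05 in limma, and the methods' t-test called 170. Of the 10 markers of neurons in general 0 were called. An unadjusted p under 0.05 in limma was found for 2 of the 10, and the methods' t-test called 0. The sum of these 10 markers also did not overlap, at 412 to 447 in WT and 352 to 391 in R6/2. The summed signal of 3 blood cell markers was 52.8 to 67.9 in WT and 68.0 to 113 in R6/2. Markers of striatal interneurons and of microglia also summed lower in R6/2 without overlap. The 8 interneuron markers summed to 88.7 to 105 in WT and 67.1 to 74.4 in R6/2, all 8 with negative differences, a median of -0.41, 0 called and 7 at an unadjusted p under 0.05 in limma (0 by the methods' t-test). The 8 microglia markers summed to 129.5 to 151 in WT and 112 to 128.7 in R6/2, so the gap was narrow. Their median difference was -0.18, and 6 of 8 were negative. In limma 0 were called and 1 had an unadjusted p under 0.05 (0 called by the methods' t-test). Itgam had the highest signal of the 8 (mean log2 6.43 in WT and 6.15 in R6/2) and weighs most in the sum. Cx3cr1 and P2ry12 had positive differences (0.02 and 0.13). The part of any of these marker lists in the decreases of Adcy5 and Adcy9 was not tested.

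The other genes of the cAMP pathway were taken in 9 lists that hold 124 genes, of which 118 were tested. Of these 11 fell, none rose, and 88 had a negative difference. The 11 that fell are 9.32% of the genes tested, beside 1.94% of all 16574 genes (1.47% lower and 0.471% higher). The median difference was -0.15 against 0.02, and 7539 of all 16574 genes had a negative difference. An unadjusted p under 0.05 in limma was found for 48 of the 118 genes, beside 3151 of all 16574. Each gene was counted on its probe of highest mean signal, and further genes were called on another probe only. Among these were Pde7b (-0.56 ± 0.09, SE, limma adjusted p = 0.0369) and Grm4 (-1.53 ± 0.28, 0.0465), each on 1 of 2 probes, and Camk4 (-0.63 ± 0.10, 0.0288, and -0.66 ± 0.10, 0.0288) on 2 of 3. With the replicate block 3 of the 11 passed: Arpp21 (adjusted p = 0.0483), Gpr52 (0.0483) and Ppp1r1b (0.0475).

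The subunits that carry signals to the cyclases did not pass the test. The list of Gs and Golf subunits held 8 genes, among them Ric8a and Ric8b, which are not G protein subunits themselves. Of the 8 genes 0 were called, 2 had an unadjusted p under 0.05 in limma and the methods' t-test called 0. The list median was -0.16, and the subunit with the smallest p was Gng7, at -0.25 ± 0.10 (SE, adjusted p = 0.243). Gnal, the Golf alpha subunit that couples striatal receptors to Adcy5, named here after its value was seen, was at -0.28 ± 0.14 (SE, adjusted p = 0.343). Of 5 Gi, Go and Gz subunits 0 were called and 0 had an unadjusted p under 0.05, also 0 by the methods' t-test. Their median was 0.09, with Gnao1 at -0.13 ± 0.07 (SE, adjusted p = 0.413).

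The receptor lists held most of the called genes but were also the longest, with 15% and 12.9% of their tested genes called. The share was 12.5% for phosphodiesterases and 22.2% for protein kinase A targets and CREB genes. Of 20 receptors that raise cAMP 3 fell and 18 had negative differences, with a median of -0.49. Gpr52, an orphan receptor coupled to Gs, fell by 0.68 ± 0.09 (SE, limma adjusted p = 0.0171), and Gpr6, a constitutively active receptor, by 0.66 ± 0.12 (adjusted p = 0.0430). Adora2a, the main adenosine receptor of the striatum, fell by 1.15 ± 0.22 (adjusted p = 0.0499), which is 2.22-fold. Of 31 receptors that lower cAMP 4 fell and 27 had negative differences, with a median of -0.45. They were the muscarinic receptor Chrm4 at -0.59 ± 0.09 (adjusted p = 0.0295), the delta opioid receptor Oprd1 at -0.64 ± 0.10 (0.0302), the dopamine receptor Drd3 at -0.64 ± 0.11 (0.0342) and the cannabinoid receptor Cnr1 at -1.07 ± 0.19 (0.0408). With the replicate block the adjusted p was 0.0591 for Gpr6, 0.0789 for Adora2a, 0.0663 for Chrm4, 0.0778 for Oprd1, 0.0508 for Drd3 and 0.0508 for Cnr1. With normexp background correction Chrm4 was at -0.32, Oprd1 at -0.39 and Gpr52 at -0.40, each a difference over 1.5 times smaller and still called (adjusted p = 0.0238, 0.0219 and 0.00996). Drd1 and Drd2, the main dopamine receptors of projection neurons, named here after their values were seen, were at -0.70 ± 0.14 (adjusted p = 0.0572) and -0.72 ± 0.15 (0.0614).

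**Figure D4:**
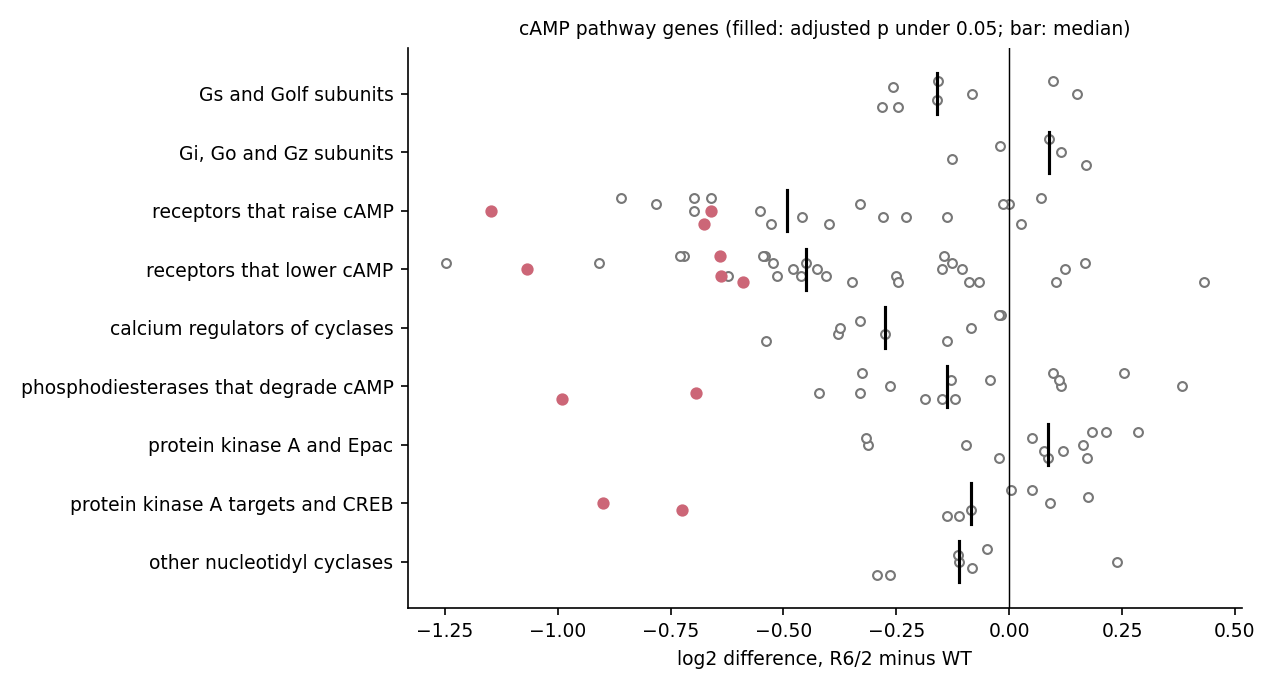
Log2 difference, R6/2 minus WT, of the tested genes of 9 cAMP pathway lists, 1 point per gene; the bar is the median of a list and filled points have an adjusted p under 0.05. The 11 filled points all lie below 0, in the lists of receptors, phosphodiesterases and protein kinase A targets.

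Downstream of cAMP, 2 of 16 phosphodiesterases fell on their brightest probe, and Pde7b on its other probe, with a list median of -0.14. Pde10a, the dual-specificity phosphodiesterase of projection neurons, fell by 0.99 ± 0.14 (SE, limma adjusted p = 0.0246, 0.0649 with the replicate block). Pde1b, activated by calcium and calmodulin, fell by 0.69 ± 0.11 (adjusted p = 0.0288, 0.0609 with the replicate block). Of 9 protein kinase A targets and CREB genes 2 fell, with a median of -0.08. They were Arpp21, a striatal phosphoprotein, at -0.90 ± 0.10 (adjusted p = 0.0104, on 1 of its 3 tested probes) and Ppp1r1b, which encodes DARPP-32, at -0.73 ± 0.11 (adjusted p = 0.0291). Of 13 protein kinase A and Epac genes 0 were called, with 3 at an unadjusted p under 0.05 in limma and 0 by the methods' t-test. Their median was 0.09, and the smallest p was that of the anchoring protein Akap5, at -0.31 ± 0.08 (adjusted p = 0.102). Of 9 calcium regulators of cyclases 0 were called on their brightest probe, although Camk4 was on 2 others, with 5 at an unadjusted p under 0.05 in limma and 0 by the methods' t-test. All 9 had negative differences, with a median of -0.28 and Camk2a, a calmodulin-dependent kinase subunit, at -0.38 ± 0.09 (adjusted p = 0.0897). Of the 7 other nucleotidyl cyclases tested, among 11 listed, 0 were called in limma, 2 had an unadjusted p under 0.05, and the methods' t-test called 1. The natriuretic peptide receptor Npr2 had the smallest p and was at 0.24 ± 0.06 (adjusted p = 0.103).

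Likeness to Adcy5 (probe 2) was ranked only among genes with a standard symbol. Those whose log2 signal followed Adcy5 most closely over the 8 arrays were Scn4b (Pearson r = 0.996), Rgs9 (0.993), Kdm4b (0.993), Pmepa1 (0.991) and Hpca (0.991). Next were Sec14l3 (0.989), Bcr (0.988), Cntnap1 (0.988), Nrgn (0.987) and Dock4 (0.987). Scn4b and Rgs9 are markers of striatal projection neurons, and the points share the genotype difference, the slide and the scaling. Once each genotype's mean was taken off, the 5 closest were Gpatch8 (r = 0.996), Rgs9 (0.979), Zfp791 (0.978), Scn4b (0.975) and Ccnk (0.973). Among the other cyclases Adcy9 was closest, at 0.973 over the 8 arrays and 0.766 with the genotype means taken off. Adcy1 was at 0.819 and -0.03 in the same order, and Adcy8 at -0.76 with the means taken off. These values over 8 arrays are descriptions and were not tested.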

How the data were processed

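Total RNA from the striatum of 4-week-old male mice was read on 8 arrays (4 WT, 4 R6/2). The members and gene lists were chosen with earlier results of these data known. Scanner files come from Agilent Feature Extraction 10.7.3.1, per the file headers. These deposited intensities comprise a mean signal, a local background and a processed signal, not scaled between arrays. The authors' deposited table holds log2 values, which equal the log2 raw signal less a constant per array, with column medians of -3.48 to -3.27, and p-values and fold ratios of R6/2 over WT with their direction. Its 8 columns of flags per sample were not used.

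From the processed signal of each probe, the 75th percentile of its array was taken off on the log2 scale. Spots of one probe were averaged and outlier flags left out. Probes well above background on at least 4 of 8 arrays were tested with limma 3.58.1 in R 4.3.3 (lmFit, eBayes), all 8 arrays in one fit, p-values adjusted by Benjamini-Hochberg. A fold is 2 raised to the log2 difference. For a gene with several probes outside the family, the probe of highest mean signal was used. Array design names were updated through RefSeq (GRCm38.p6): 26762 probes by accession, 3819 by symbol, 639 by synonym, while 24461 kept no standard name. The number of arrays limits the precision.

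Replicate numbers come from the sample titles. Deviations from the genotype means of same-numbered arrays correlated at 0.22, 0.18, 0.36 and 0.13 (numbers 1 to 4), each over 0.1. These arrays also share a slide column, and the numbers were taken to pair the samples in the replicate block. The labels do not state a pairing, and an effect of the slide column cannot be told apart from one. Named were every member probe and up to 4 called genes per pathway list by smallest p (or the 1 gene of smallest p). The 10 and 5 genes most like Adcy5, among genes with a standard symbol, were also named. Alternatives tried were normexp background correction (offset 50), quantile normalization, no filter or a filter on all arrays, the replicate block, the authors' log2 values, an unpaired equal-variance test that the table's header names (the methods' t-test), and each array left out. The fits were tested on simulated data.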

Additional observations from a re-analysis of the deposited data

Results flagged for a closer look

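The R6/2 value of Adcy5 probe 2 on array 4 stood apart from the other 3 R6/2 arrays. Its gap to the nearest of them was 0.866 of the group's whole range, above Dixon's 95% critical value for 4 samples. The scan covered 46 groups of samples, and chance passes about 1 group in 20. Array 4 was also the lowest R6/2 array in the summed projection neuron markers, at 420 against 504 to 575. Without R6/2 array 4 the difference of Adcy5 probe 2 was -0.76, with a limma adjusted p of 0.0246.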

How the results depend on the processing

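Over 16 settings, the main one included, the differences of Adcy1, Adcy5 and Adcy9 kept their negative sign, but their calls did not hold throughout. The count of member probes called, 4 in the main setting, was 0 with no filter on dim probes, 2 with the replicate block, 1 by the methods' t-test (Adcy9), and 0 to 3 with 1 array left out. It was 5 with normexp or quantile normalization, which added Adcy1 (adjusted p = 0.0361 and 0.0412). The count of cAMP pathway genes, 11 in the main setting, was 17 with normexp (16 lower), 1 with no filter, 3 with the replicate block, 3 by the methods' t-test, and 1 to 12 with 1 array left out. The count of cyclases whose ratio to Adcy5 differed, 7 of 8 in the main setting, was 4 by the methods' t-test and 5 to 7 with 1 array left out. Over all genes, 321 in the main setting became 619 with normexp, 77 with no filter, 168 with the replicate block and 170 by the methods' t-test. More probes enter the fit with no filter (55681 in place of 35131). The cause of the other shifts was not tested.

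Differences near 0 changed sign. Adcy3 was -0.019 with normexp and ranged from -0.010 to 0.082 with 1 array left out. Adcy4 ranged from -0.37 to 0.13. Adcy8 was 0.082 with quantile normalization, 0.0052 with the authors' log2 values, and ranged from -0.23 to 0.14. Blocking by replicate changed no member's call other than those given for Adcy5, Adcy9 and Adcy1. A fit with the slide as a block was not run, since all 8 arrays were on 1 slide. The wide spread of the Adcy8 and Adcy4 probes, with within-genotype SDs of 0.39 and 0.50 on the log2 scale, limits what can be seen for these genes.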
